A study of Mus musculus with 9 samples.

Results

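Bend5, Dchs1, Otub2, Tlcd2, Cables1, Eya2 and Otor are 7 genes of mouse articular chondrocytes, the cells that make and keep up joint cartilage, whose RNA had been noticed to differ with 5-ASA while cells with and without added OSCAR were alike. They are 7 of the 55471 genes in the deposited tables, and all 7 were among the 15362 genes with enough counts to be tested. They were chosen on the same measurements that are described here, with no numerical threshold, so their differences between groups are given as values without a test. Each gene was found by its Ensembl identifier in all 9 cultures, with 28 to 778 counts per culture.

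5-ASA (5-aminosalicylic acid, mesalamine) is a drug given against inflammation of the colon, and OSCAR is a collagen receptor that is best known from osteoclasts, the cells that resorb bone. The study asked how the drug acts on chondrocytes that were made to express OSCAR. Primary chondrocytes came from the knee-end cartilage (femoral condyles and tibial plateaus) of wild-type mice at postnatal day 5 and were grown on plates coated with a collagen peptide that OSCAR binds. There were 3 groups of 3 cultures. All cultures were infected with adenovirus: those called Control with a control virus (Ad-Control in the study's methods), the other two groups with a virus that carries OSCAR (Ad-OSCAR), and 1 of these was also given 10 µM 5-ASA. The sample annotations give 3 days of culture, infection for 2 h at a multiplicity of infection of 400 and 36 h before the drug, while the study's methods give other times and doses. IL-1β was not added to any group. Whether the cultures without the drug were given its vehicle is not stated for this experiment. For such chondrocytes the study's methods name alternative mouse strains without saying which was used here. Control cells were never given 5-ASA, so an effect of the drug in cells without added OSCAR cannot be told apart from one that needs OSCAR. Nothing says whether the cultures of a group came from separate litters, so p-values below measure the spread between these cultures, which may be technical.

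The 7 proteins have little in common beyond the rule that brought them together. Otoraplin (Otor) is a small secreted protein of the MIA family, known from cartilage and the inner ear. Dachsous 1 (Dchs1) is a very large cadherin at the cell surface that binds the cadherin FAT4 on the neighbouring cell and gives cells their orientation in a tissue, the growth plate among them. TLCD2 sits in membranes and limits how many long polyunsaturated chains enter their phospholipids. OTUB2 is an OTU-type deubiquitinase, an enzyme that takes ubiquitin off other proteins. BEND5 binds DNA through its BEN domain and represses transcription. EYA2 is a transcriptional coactivator and also a tyrosine phosphatase. CABLES1 is an adaptor that links cyclin-dependent kinases to tyrosine kinases such as WEE1 and is known as a brake on the cell cycle.

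The positions are given for GRCm38 with the GENCODE M21 annotation, and each is annotated as protein coding. Otor is at chromosome 2, 143078473 to 143081713 on the plus strand, and Eya2 is on the same chromosome and strand at 165595032 to 165771727. Dchs1 is at chromosome 7, 105752990 to 105787654 on the minus strand. On plus strands lie also Bend5 at chromosome 4, 111415006 to 111460298, Tlcd2 at chromosome 11, 75461715 to 75470899 and Otub2 at chromosome 12, 103388682 to 103406350, and Cables1 lies on a chromosome of its own. Only Otor and Eya2 share a chromosome.

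The sequence just before the start of transcription is shown for 4 of the genes from the RefSeq promoter table used here (GRCm38.p6), since genes that move together may be compared there. Dchs1 and Eya2 were not matched in that table, and the window of Cables1 is not shown here. Each line holds the 250 bases before the RefSeq start on the gene's own strand, 5′ to 3′. Capitals mark the matches to the TATA box (TATAAA), the CCAAT box (CCAAT) or the GC box (GGGCGG), each searched on both strands, so that a match on the other strand reads ATTGG or CCGCCC.
Otor (chr2:143078143-143078392, plus strand): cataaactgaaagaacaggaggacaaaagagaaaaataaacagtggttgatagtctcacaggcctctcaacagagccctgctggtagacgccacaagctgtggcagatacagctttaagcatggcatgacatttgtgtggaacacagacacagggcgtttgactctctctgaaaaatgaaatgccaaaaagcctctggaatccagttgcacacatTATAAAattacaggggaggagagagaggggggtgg
Tlcd2 (chr11:75467800-75468049, plus strand): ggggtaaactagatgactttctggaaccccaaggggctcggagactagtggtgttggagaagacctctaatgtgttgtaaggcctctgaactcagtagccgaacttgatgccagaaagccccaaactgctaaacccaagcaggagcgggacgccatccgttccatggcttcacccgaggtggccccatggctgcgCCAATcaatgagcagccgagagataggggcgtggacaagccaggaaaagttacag
Otub2 (chr12:103388432-103388681, plus strand): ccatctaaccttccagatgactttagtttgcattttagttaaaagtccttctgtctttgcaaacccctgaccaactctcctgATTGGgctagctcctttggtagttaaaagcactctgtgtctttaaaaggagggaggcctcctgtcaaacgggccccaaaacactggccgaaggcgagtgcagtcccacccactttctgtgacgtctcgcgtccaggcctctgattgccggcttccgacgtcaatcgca
Bend5 (chr4:111414756-111415005, plus strand): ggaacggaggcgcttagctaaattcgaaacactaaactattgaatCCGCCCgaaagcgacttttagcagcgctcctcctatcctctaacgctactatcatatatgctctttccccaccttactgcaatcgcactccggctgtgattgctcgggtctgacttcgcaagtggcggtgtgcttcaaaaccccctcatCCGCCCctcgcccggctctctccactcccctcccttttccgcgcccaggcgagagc

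These 4 windows had no kind of match in common except the CCAAT box of Otub2 and Tlcd2. The Otor window held a TATA box 35 bases before the start, a match that 12.4% of all 32817 RefSeq windows of this length contain. The CCAAT boxes lay 168 bases before the start of Otub2, on the other strand, and 55 bases before that of Tlcd2, and 33.8% of all windows contain one. Bend5 had GC boxes on the other strand at 205 and 56 bases before its start (32.7% of all windows). Base composition also differed. The Otor window was 46.0% G and C with 2 CpG, against 56.0% and 19 CpG for Bend5, where the median of all windows was 52.4% and 6 CpG.

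None of the 4 windows matched 7 further motifs, searched on both strands. These were the AP-1 site TGANTCA (6.75% of all windows), the CRE TGACGTCA (1.55%), the nuclear receptor core AGGTCA (14.0%) and its direct repeat AGGTCANAGGTCA, to which PPARγ binds (0.0335%), the E-box CACGTG (6.02%), the TEAD site GGAATG (12.6%) and the C/EBP-ATF core TGATGNAA (3.45%). That says only that these letters are not in these windows. The RefSeq start of Tlcd2 lies 6335 bases inside the GENCODE gene and that of Otor 80 bases from its GENCODE start, while those of Otub2 and Bend5 coincide.

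The libraries held 19733431 to 28192725 counts per culture, and no replicates were alike within sampling noise (chi-square per degree of freedom between 4.25 and 8.1, where noise alone gives 1). Oscar itself stood at 0.123 to 0.211 CPM (counts scaled by TMM, which corrects for depth and composition, to a common total) in Control cells, with 3 to 4 counts, at 6354 to 7112 CPM in Ad-OSCAR cells and at 2946 to 3723 CPM with 5-ASA. The 8 chondrocyte markers, Col2a1 and Acan among them, were present in every culture and summed to 42489 to 48256 CPM in Control, 3081 to 3475 in Ad-OSCAR and 3959 to 4425 CPM in treated cells. The 4 fibroblast markers summed to 6053 to 6316, 10503 to 10966 and 12701 to 13071 CPM in the same order, but they did not move together. From Control to Ad-OSCAR the means of Col3a1 and Dcn rose (4253 to 7009 and 1639 to 3521 CPM). Those of Thy1 and Pdgfra fell (14.1 to 2.43 and 294 to 221 CPM) and stayed below Control in treated cells (4.25 and 230 CPM). Sums of the 4 osteoblast markers were 58.1 to 66.2, 10.2 to 14.7 and 24.0 to 25.8 CPM. Lists for endothelium, muscle, Schwann and red blood cells summed to at most 2.88 CPM in any culture, and those for macrophages to at most 8.99, osteoclasts 18.6, tendon 28.3 and fat cells 31.3 CPM. The larger shifts of the chondrocyte, fibroblast and osteoblast sums lay between Control and Ad-OSCAR cells, where the 7 genes overlapped in CPM. The drop of Oscar and the smaller shifts of these sums with 5-ASA fall between the same groups as the differences of the 7 genes. Their part in those was not tested. In bulk RNA, fewer cells of a type and less RNA per cell cannot be told apart.

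With 5-ASA, 6 of the 7 genes were higher and Cables1 was lower, by 1.57 to 2.19 times, while Control and Ad-OSCAR cells overlapped in all 7. Treated cultures did not overlap with Ad-OSCAR cultures in CPM for any of the 7, nor with Control. Over all tested genes, 17.8% had no overlap with higher values in treated than in Ad-OSCAR cells and 16.1% with lower ones. Against Control these shares were 33.4% and 33.2%, and between Ad-OSCAR and Control 35.0% and 34.0%. Since the genes were picked for this pattern, the count describes the choice.

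**Figure D1:**
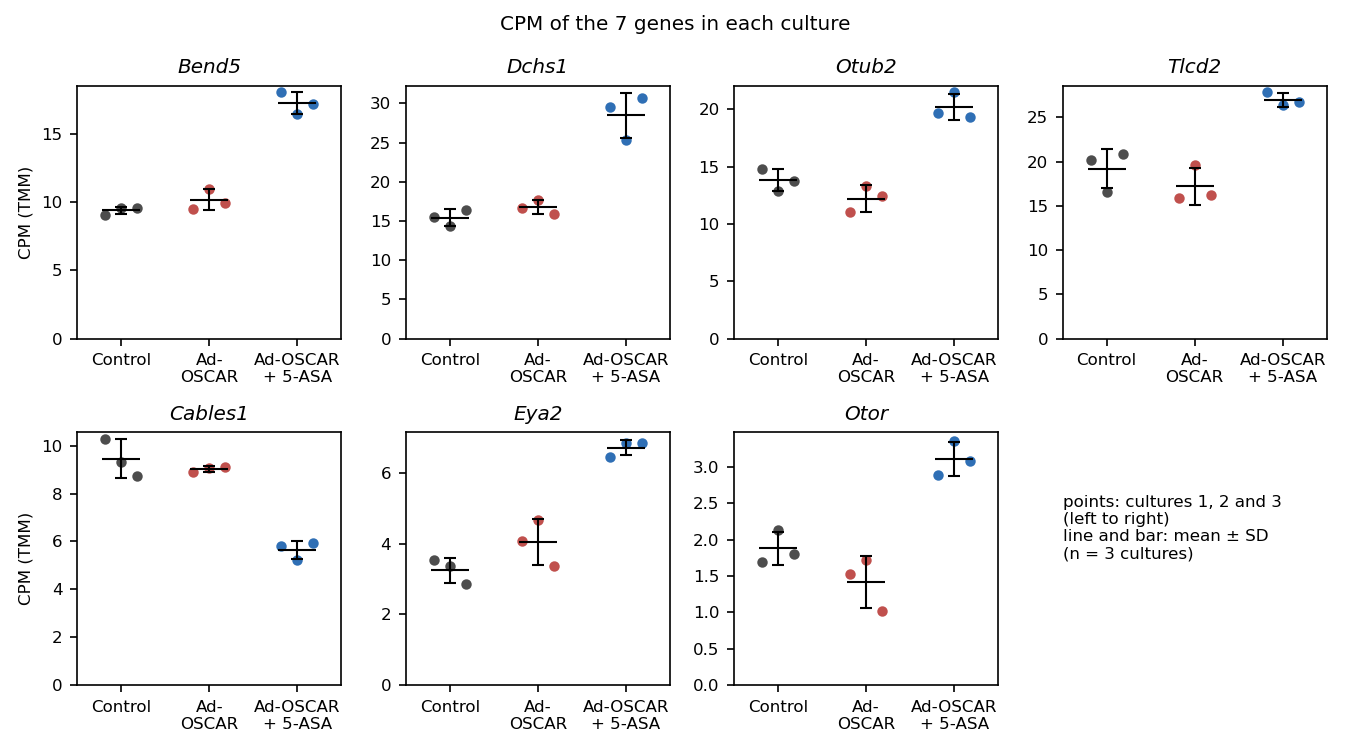
CPM (TMM) of each gene in each culture, with 1 panel per gene, points for cultures 1 to 3 of a group from left to right, and the mean ± SD (n = 3) in black. In every panel the treated cultures lie apart from the other 6, above them in 6 panels and below them for Cables1, from 5.22 to 5.93 CPM against 8.72 to 10.3.

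Otor had the largest fold and the fewest counts. Its CPM values were 1.70, 2.14 and 1.80 in Control, 1.53, 1.72 and 1.02 in Ad-OSCAR and 2.89, 3.36 and 3.08 in treated cultures. Ad-OSCAR culture 3 was the lowest of all with 28 counts, and the lowest treated culture still stood above the highest Control. The treated group was 2.19 times the Ad-OSCAR group (log2 fold change 1.13, SE 0.20, 95% interval 0.72 to 1.55) and 1.65 times Control. Ad-OSCAR against Control was -0.41 on the log2 scale (-0.87 to 0.04), the largest of the 7 in size and the least well determined. With so few counts, no difference and a clear drop both lie in that interval.

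Dchs1 stood at 15.5, 14.3 and 16.4 CPM in Control, 16.7, 17.7 and 15.9 in Ad-OSCAR and 29.5, 25.3 and 30.7 in treated cultures. The first 2 groups interleaved, and every treated culture was above them. The fold with 5-ASA was 1.70 (log2 0.77, SE 0.08, interval 0.60 to 0.93), against 1.09 for Ad-OSCAR over Control (log2 0.13, -0.05 to 0.31). It shares 648 exonic bases with the pseudogene Gm15645 on the other strand, which had at most 2 counts in any culture.

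Tlcd2 was at 20.2, 16.6 and 20.8 CPM in Control, 15.9, 19.6 and 16.2 in Ad-OSCAR and 27.9, 26.4 and 26.7 in treated cultures. The treated values were the closest to each other of the 3 groups (SD 0.78 CPM), and the other groups overlapped. The fold with 5-ASA was the smallest of the 7 at 1.57 (log2 0.65, SE 0.09, 0.47 to 0.83), and that of Ad-OSCAR over Control was 0.899. Tlcd2 shares 206 exonic bases on the same strand with Mir22hg, the host RNA of miR-22. Mir22hg was at 43.1 ± 1.17 CPM in Ad-OSCAR and 48.2 ± 1.60 CPM in treated cells (SD, n = 3), a log2 fold change of 0.16 (SE 0.05, edgeR adjusted p = 0.0281). By edgeR that call was lost without filtering (adjusted p = 0.0518) and without Ad-OSCAR culture 1 (0.117) or 3 (0.0872) or treated culture 1 (0.0786) or 2 (0.0972), and reads in the shared bases cannot be placed with certainty.

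Otub2 stood at 14.8, 12.9 and 13.7 CPM in Control, 11.0, 13.3 and 12.4 in Ad-OSCAR and 19.7, 21.5 and 19.3 in treated cultures. Only Ad-OSCAR culture 2 reached into the Control range, and the treated cultures stood clear of both. The drug contrast gave 1.66 times (log2 0.73, SE 0.08, 0.56 to 0.90) and OSCAR alone 0.884 times (log2 -0.18, -0.36 to 0.01).

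Bend5, the DNA-binding repressor, had 9.11, 9.57 and 9.57 CPM in Control, 9.53, 11.0 and 9.97 in Ad-OSCAR and 18.1, 16.5 and 17.2 in treated cultures. Control and Ad-OSCAR met at 9.53 to 9.57 CPM, far under the treated values. The folds were 1.70 with the drug (log2 0.76, SE 0.08, 0.60 to 0.93) and 1.08 with OSCAR (log2 0.11, -0.07 to 0.29). The gene lies within the larger Agbl4 on the same strand without sharing an exonic base, and Agbl4 had at most 4 counts.

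Eya2 was at 3.54, 3.37 and 2.85 CPM in Control, 4.07, 4.67 and 3.38 in Ad-OSCAR and 6.46, 6.86 and 6.84 in treated cultures. Ad-OSCAR culture 3 lay inside the Control range and the other two above it, with a log2 fold change of 0.30 (0.00 to 0.61), the largest upward difference of the 7 in that contrast. With 5-ASA it was 1.67 times the Ad-OSCAR level (log2 0.74, SE 0.13, 0.47 to 1.01) and 2.05 times Control.

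Cables1 (chromosome 18, 11839220 to 11945630, plus strand), the only gene of the 7 that was lower with 5-ASA, had 10.3, 9.33 and 8.72 CPM in Control, 8.89, 9.06 and 9.13 in Ad-OSCAR and 5.81, 5.22 and 5.93 in treated cultures. All Ad-OSCAR values fell inside the Control range. With 5-ASA the level was 0.626 times that of Ad-OSCAR cells (log2 -0.68, SE 0.10, -0.88 to -0.47), and OSCAR alone gave 0.953 times. It shares 1314 exonic bases with Gm6277 on the other strand, at 1.96 ± 0.339 CPM in Ad-OSCAR and 1.42 ± 0.0372 in treated cells (SD, n = 3; log2 -0.47, SE 0.21, edgeR adjusted p = 0.145). The library kit marks strand, but how the counting used strand is not given in the sources used here, so reads of this pair may be mixed.

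The log2 fold changes of the 7 had a median size of 0.74 with 5-ASA, where the median over all tested genes was 0.12, and of 0.15 for Ad-OSCAR against Control, where it was 0.38. In the drug contrast each of the 7 changed more than 95.1% to 98.9% of tested genes, and in the OSCAR contrast more than 10.9% to 52.9%. Adjusted p-values from edgeR's quasi-likelihood test were below 0.05 for 17.8% of all genes with 5-ASA, for 65.0% with OSCAR and for 63.2% in treated cells against Control. The 3 comparisons share cultures, so that a low value in Ad-OSCAR lowers the OSCAR fold and raises the drug fold.

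**Figure D2:**
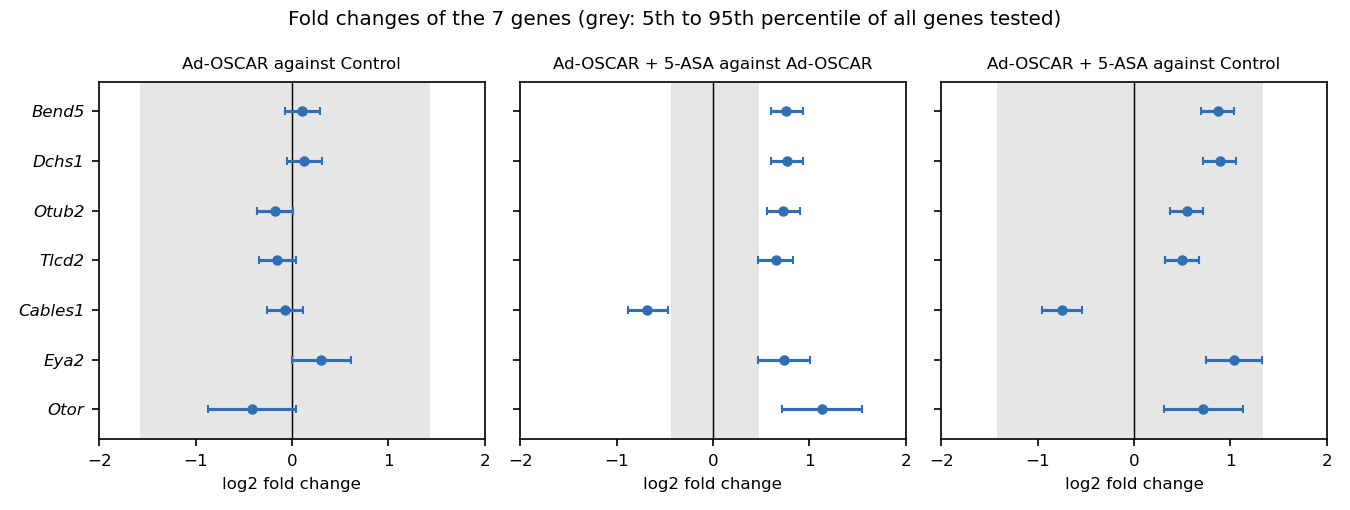
Log2 fold changes of the 7 genes with 95% intervals (x axis) in the 3 comparisons, and the range from the 5th to the 95th percentile of all tested genes in grey. With 5-ASA the 7 points lie outside the grey range of -0.43 to 0.48, and for OSCAR they lie from -0.41 (Otor) to 0.30 (Eya2), inside a range of -1.58 to 1.43.

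An explicit form of the rule (adjusted p below 0.05 and a fold above 1.5 with 5-ASA, and a fold under 1.5 with OSCAR) held for 83 genes, or 0.54% of those tested, of which 56 (0.365%) were higher with the drug and 27 (0.176%) lower. The 7 genes had been picked for this pattern, so that their place among the 83 describes the choice and is no test. Ranked by the fold with 5-ASA, Otor was 6 of the 56, followed by Dchs1 at 24, Bend5 at 25, Eya2 at 30, Otub2 at 33 and Tlcd2 at 47, and Cables1 was 21 of the 27.

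Per length, Tlcd2 stood above the median of all tested genes in Control cells (74.2% of them were lower), and the other members below it, down to Dchs1 (23.5% were lower). In Control cells TPM (a level scaled by transcript length and library total) was 36.9 ± 3.59 for Tlcd2, 11.7 ± 0.783 for Bend5, 9.57 ± 0.991 for Otub2, 5.56 ± 0.373 for Cables1, 4.09 ± 0.514 for Otor, 3.36 ± 1.17 for Eya2 and 2.46 ± 0.189 for Dchs1 (SD, n = 3), where the median of tested genes was 13.4. Neighbours in this order did not overlap in TPM except Otor with Eya2 and Eya2 with Dchs1. In treated cells the TPM of Tlcd2 was 49.8 ± 1.19 and that of Dchs1 4.42 ± 0.386.

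TPM and CPM gave the same direction with 5-ASA for all 7, but not the same overlaps. In TPM the Ad-OSCAR values of Bend5 (12.7 to 14.5) lay above those of Control (11.0 to 12.6), and those of Dchs1 (2.76 to 2.95) above 2.24 to 2.59. These 2 genes thus did not overlap between the untreated groups on that scale. In CPM 35.0% of all tested genes had no overlap with higher values in Ad-OSCAR than in Control, and that share was not counted for TPM. For Eya2 the treated TPM values of 4.73 to 5.95 overlapped with 2.65 to 5.42 in Ad-OSCAR. The transcript length that RSEM assigned to Eya2, a mean over its 6 annotated transcripts weighted by their estimated use, ran from 1430 to 2358 bases between cultures, while that of Otor was 949 bases in all. For Bend5 the length ran from 1383 to 1619 bases in Control and from 1419 to 1453 in Ad-OSCAR cultures. For Dchs1 it ran from 10028 to 10754 and from 9956 to 10122 bases. The median of all genes fell by 0.10 on the log2 TPM scale with 5-ASA and was 0.00 after TMM. Relative to that shift the TPM differences of the 7 with the drug were 0.66 for Bend5, 0.71 for Dchs1, 0.71 for Otub2, 0.68 for Tlcd2, -0.65 for Cables1, 0.59 for Eya2 and 1.15 for Otor.

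The profiles of the 7 genes over the 9 cultures were compared with each other. The measure was the root mean square difference of log2 CPM after each gene was centred on its own mean, where 0 would be the same profile. Bend5 and Dchs1 were closest (0.084), followed by Otub2 and Tlcd2 (0.092). Eya2 was nearest to Bend5 (0.159), Otor was nearest to Otub2 at 0.275, and Cables1, the gene that was lower, was 0.617 to 0.807 from the other members. Because the 7 were picked for their pattern in these same cultures, the closeness of those that were higher and the distance of Cables1 largely follow from the choice. The 7 were then left out, and the nearest genes below are among the other genes that averaged 1 CPM or more and have a symbol that does not mark a predicted gene or RIKEN clone (12187 compared). Those closest to Otub2 were Brd3os (0.068), Lbp (0.087), which codes for the lipopolysaccharide-binding protein, and Ptn (0.097), the growth factor pleiotrophin. Closest to Tlcd2 were again Brd3os (0.084) and the proteoglycan genes Podn (0.093) and Podnl1 (0.099).

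Bend5 and Dchs1 shared Tmem86a and Pamr1 among their 3 nearest genes outside the 7. Outside the 7, the nearest of Bend5 was the secreted protease gene Prss23 (0.114), which went from 1135 ± 47.1 CPM in Ad-OSCAR to 1684 ± 45.0 CPM in treated cells (SD, n = 3), and Pamr1 (0.111) was the nearest of Dchs1. Eya2 had the glucose transporter gene Slc2a3 (0.128), Plcb4 (0.133) and Ptx3 (0.133), which codes for pentraxin 3. Cables1 had the iron exporter gene Slc40a1 (0.116), Ezr (0.134) and Rab32 (0.136). Otor had the most distant neighbours, Slc9a9 (0.150), Chac1 (0.159) and Mdk (0.194), where Mdk codes for midkine, the relative of pleiotrophin. The median distance over all genes compared lay between 0.36 for Tlcd2 and 0.55 for Otor. These likenesses rest on 9 cultures in 3 groups and describe profiles only.

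Close relatives and known partners of the 7 genes were listed by family and function, and they were tested with edgeR (Benjamini-Hochberg over all genes). Of 80 listed, 69 had enough counts. With 5-ASA 6 were higher, 6 lower and 57 not called, so that 17.4% were called, about the 17.8% of all genes (10.4% higher, 7.38% lower). With OSCAR 30 were higher and 30 lower, which is 87.0% against 65.0% of all genes (32.7% higher, 32.2% lower).

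**Figure D3:**
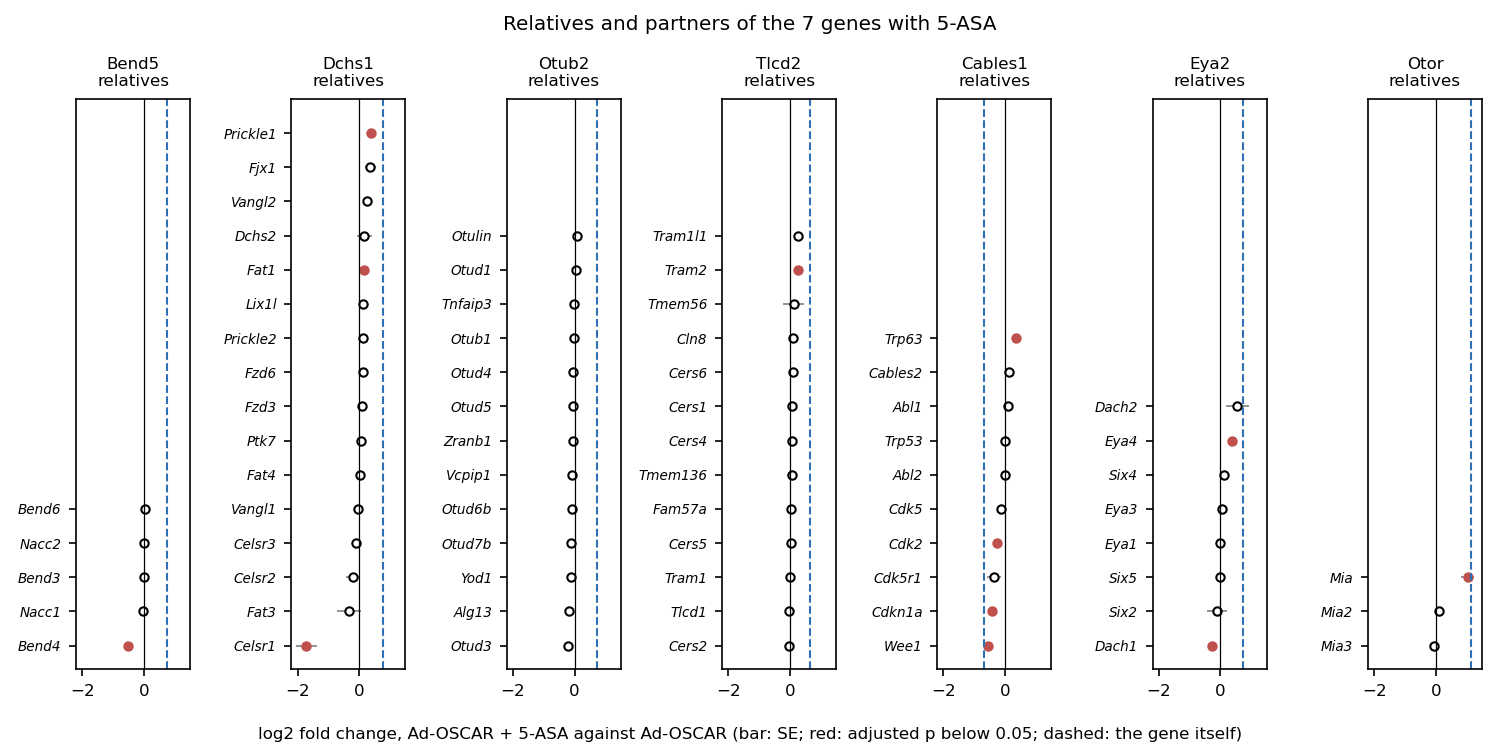
Log2 fold change with 5-ASA of the relatives and partners of each gene, with SE bars, 1 panel per gene of the 7. Red points had an adjusted p below 0.05, and the dashed line is the gene itself. Most relatives lie near 0, with Mia at 1.04 and Celsr1 at -1.71 the farthest from it.

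Mia, a relative of Otor that cartilage is known to make (also called cartilage-derived retinoic acid-sensitive protein), rose with 5-ASA by 1.04 on the log2 scale (SE 0.21, adjusted p = 0.00208), close to the 1.13 of Otor. With OSCAR it fell by 2.94 (SE 0.18, adjusted p = 8.67e-11). Its levels were 9.07 ± 1.19 CPM in Control, 1.19 ± 0.402 in Ad-OSCAR and 2.44 ± 0.114 in treated cells (SD, n = 3), so that the mean of Mia in treated cells lay under that of Control, while that of Otor lay above it. Mia2 and Mia3, which serve in the export of collagen from the endoplasmic reticulum, were not called with the drug.

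Of the 16 tested genes of the Dachsous-Fat and planar polarity systems, 2 were higher and 1 lower with 5-ASA (18.8% called, about the 17.8% of all genes). Fat4, which codes for the binding partner of Dachsous 1, was at 327 ± 24.8 CPM in Ad-OSCAR and 335 ± 18.6 CPM in treated cells (log2 0.04, SE 0.06, adjusted p = 0.715). Prickle1, a cytoplasmic planar polarity component, rose by 0.37 (SE 0.05, adjusted p = 9e-05). Fat1 rose by 0.16 (adjusted p = 0.0177), a call lost without Ad-OSCAR culture 2 (adjusted p = 0.0841) or treated culture 3 (0.0798). Celsr1, a cadherin of the same system with few counts, went from 1.22 ± 0.306 to 0.367 ± 0.0790 CPM (log2 -1.71, SE 0.34, adjusted p = 0.00173). That call was kept in the 13 alternative edgeR fits with a value for Celsr1 (adjusted p up to 0.0127). DESeq2 and a floor on the counts of each culture gave no value for this gene, so the call was not seen there.

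No relative of Otub2 was called with the drug. Of 13 tested OTU deubiquitinases 0 had an adjusted p below 0.05 by edgeR or by DESeq2, 1 had an unadjusted p below 0.05, and their log2 fold changes lay between -0.21 and 0.08, against 0.73 for Otub2. With OSCAR 11 of the 13 were called (84.6%, against 65.0% of all genes). With the drug 17.8% of all genes were called. Among 13 TLC domain genes, which include the ceramide synthases, only Tram2 was called with 5-ASA, and it rose by 0.27 (SE 0.05, adjusted p = 0.00124), against 0.65 for Tlcd2. Of 5 BEN domain genes only Bend4 was called, and it fell by 0.51 (SE 0.11, adjusted p = 0.00301), opposite in direction to Bend5.

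Of 10 tested partners of CABLES1, 1 was higher and 3 were lower with 5-ASA, which is 40.0% called against 17.8% of all genes, a difference that was not tested. Wee1, the kinase that restrains cyclin-dependent kinases, fell by 0.56 with 5-ASA (SE 0.10, adjusted p = 0.000375), Cdk2 fell by 0.27 (SE 0.05, adjusted p = 0.00141), and Cdkn1a, which codes for the inhibitor p21, fell by 0.44 (SE 0.04, adjusted p = 1e-06). All 3 thus moved in the direction of Cables1 (-0.68). Trp63, which codes for p63, rose by 0.35 (SE 0.07, adjusted p = 0.00114). With OSCAR the log2 fold changes were -0.38 for Wee1, 0.20 for Cdk2, 1.52 for Cdkn1a and -0.39 for Trp63, against -0.07 for Cables1.

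Of the 9 tested genes listed for Eya2, which include its family and the DACH corepressors, 1 was higher and 1 lower with 5-ASA (22.2% called, near the 17.8% of all genes). Eya4 rose by 0.36 (SE 0.06, adjusted p = 0.000493), against 0.74 for Eya2, while Eya1 and Eya3 were not called. Dach1, which codes for a corepressor that works with EYA proteins, fell by 0.27 (SE 0.09, adjusted p = 0.0416). That call was lost with the replicate number as a block (adjusted p = 0.0662), without Ad-OSCAR culture 1 (0.126) or 3 (0.155) and without any single treated culture (0.0978, 0.0886 and 0.0970).

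Some of the nearest tested genes are far away, such as Spata6 (260 kb) and Faf1 (1451 kb) on the sides of Bend5. Of the 14 nearest tested genes on the chromosome, 1 on each side of each of the 7, 12 were not called with 5-ASA, where 17.8% of all genes were called. The other two were lower, each beside a gene that was higher. They were Ddx24, 1632 bases from Otub2, with -0.15 (SE 0.05, adjusted p = 0.0479), and Wdr81, 6998 bases from Tlcd2, with -0.25 (SE 0.07, adjusted p = 0.0155). The call of Ddx24 was lost in 9 of 15 alternatives, among them each Ad-OSCAR or treated culture left out, with adjusted p-values up to 0.154. That of Wdr81 was lost without Ad-OSCAR culture 1 (adjusted p = 0.0871) or treated culture 1 (0.0748) or 2 (0.0799). Tpp1, which codes for a lysosomal peptidase and lies 755 bases from Dchs1, had a log2 fold change of 0.00 (SE 0.04) with the drug and 0.86 with OSCAR, where Dchs1 had 0.77 and 0.13.

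**Figure D4:**
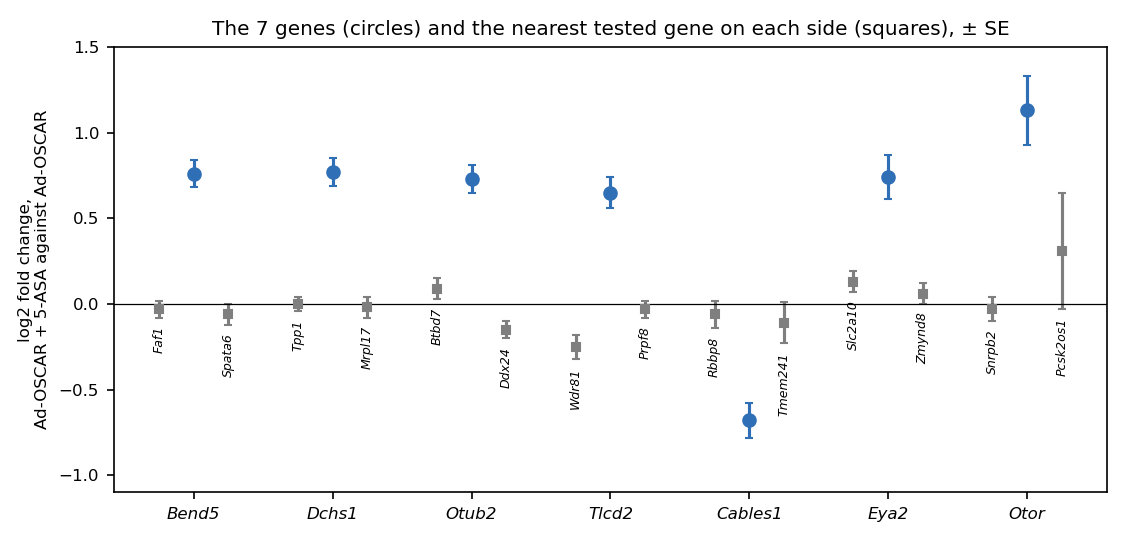
Log2 fold change with 5-ASA, with SE, of each of the 7 genes (circles) and of the nearest tested gene on either side (squares). The squares lie between -0.25 (Wdr81) and 0.31 (Pcsk2os1) and the circles at 0.65 or more in size.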

How the data were processed

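RNA of 9 cultures (3 Control, 3 Ad-OSCAR, 3 Ad-OSCAR + 5-ASA) was sequenced from stranded mRNA libraries. The submitters' processing notes name FastQC, STAR 2.7.1a, RSEM 1.3.1 and GRCm38/mm10. The authors deposited RSEM's expected counts per gene, which are not scaled, its TPM, and a transcript length in bases (an estimate-weighted mean, deposited beside them). How the counting used strand is not given in the sources used here. Symbols for 55144 of 55471 genes and coordinates came from GENCODE M21.

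Expected counts were rounded to whole numbers and fitted with edgeR 4.0.16 in R 4.3.3 (TMM, filterByExpr by group, quasi-likelihood F test, all 9 cultures in 1 fit on group alone, 6 residual degrees of freedom, Benjamini-Hochberg over 15362 genes). The biological coefficient of variation was 5.11%. SEs were derived from the fold change and its F statistic, and intervals are 95%. A gene was called at an adjusted p below 0.05. The members and the lists of relatives and markers were chosen with earlier results of these data known. The genes named were the 7, Oscar, the called relatives, the nearest tested neighbours, overlapping genes and the 3 genes with the most similar profile (log2 CPM with a prior count of 2), and Fat4, Mia2, Mia3, Eya1 and Eya3 were named as partners or nearest relatives. Alternatives were RLE scaling, DESeq2 1.42.0, no filter, a floor of 10 counts for each culture, fits of the compared groups alone, a replicate block, each culture left out, and TPM (pseudocount 0.1). The scripts were tested on simulated data. An item among the relatives is not reported here.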

Additional observations from a re-analysis of the deposited data

How the results depend on the processing

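Of 336 alternative values of the 7 genes' fold changes, 326 were counted as the same and 10 as moved, all 10 of them from TPM. There the drug values were 0.56 for Bend5, 0.61 for Dchs1, 0.61 for Otub2, -0.75 for Cables1 and 0.49 for Eya2. In TPM Cables1 also turned from -0.07 to 0.04 for OSCAR against Control. This count does not follow the SEs. Tlcd2 for OSCAR was counted as the same at -0.26 without Control culture 2, against -0.15 (SE 0.09). Cables1 with the drug was counted as moved at -0.75, against -0.68 (SE 0.10). Of 268 alternative values for related, flanking and overlapping genes, 241 kept their direction and call, 25 lost the call, and 2 turned, both for Fat4 with 5-ASA (-0.03 without Ad-OSCAR culture 2 and -0.01 without treated culture 3, up to 0.07 without other cultures), and the cause was not tested. The 268 hold 13 values for Celsr1, which has none by DESeq2 or with the floor of 10 counts. The 2 flanking genes called with 5-ASA, both lower, became 1 with RLE scaling and 1 with the replicate block, and 0 to 2 with a culture left out. For OSCAR the 9 flanking genes called (5 higher, 4 lower) became 5 to 9 (2 to 5 higher, 2 to 4 lower) with a culture left out. The 1134 genes lower with 5-ASA became 721 (without treated culture 1) to 1127, with 736 without Ad-OSCAR culture 1. The 83 genes with the pattern became 62 with DESeq2 and 111 with no filter. Cultures with the same replicate number did not deviate together (mean correlation -0.021, from -0.0724 to 0.0402), so no pairing by number was seen. Whether cultures with the same number shared a preparation is not stated. With the replicate number as a block 2500 genes were called with 5-ASA in place of 2732, and the calls of Dach1 and Ddx24 were lost. Depth limits Otor most, with 28 to 92 counts per culture.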
